A study of Mus musculus with 12 samples.

Results

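A set of 9 mouse genes that set the length or the end of messenger RNA tails in oocytes was followed here: Cpeb1, Cpeb2, Cpeb4, Dazl, Pum2, Papd4, Parn, Zcchc6 and Zcchc11. They were chosen by name and by known function, with earlier results of these data known. All 9 were among the 23230 genes of the deposited table, and 8 of them were among the 11502 genes that reached at least 1 FPKM (fragments scaled to transcript length and to the size of the library) in at least 1 library. Zcchc11 stayed under 1 FPKM in all 12 libraries. Cpeb2 reached that limit in a single library, a Zar1/2-null growing library, which was also the group in which it was highest. Papd4 is the older symbol of the poly(A) polymerase GLD2 (Tent2), and Zcchc6 and Zcchc11 are the older symbols of the terminal uridylyltransferases TUT7 and TUT4.

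A fully grown oocyte is transcriptionally silent and works through meiosis on stored mRNAs, many of which are kept dormant with short poly(A) tails. CPEB proteins bind the cytoplasmic polyadenylation element (CPE) in the 3′ untranslated region (3′ UTR), and when meiosis resumes a cytoplasmic poly(A) polymerase lengthens the tail and the message is translated. DAZL and the Pumilio protein PUM2 are RNA-binding proteins that act on such messages, PARN is a deadenylase, and TUT4 and TUT7 add uridines to mRNAs with short tails, which marks them for decay.

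The study examined mice lacking both ZAR1 and ZAR2, a pair of oocyte proteins that bind maternal mRNA. Wild-type (WT) and Zar1/2-null females, both on a C57BL6/ICR hybrid background, gave 6 groups of oocytes with 2 Smart-seq2 libraries each and 10 oocytes in each library. Both null alleles had been made with CRISPR/Cas9 in the germline, so the proteins were lacking throughout growth. Growing oocytes came from females aged 13.5 days in the labels and slightly younger in the study's methods, GV (germinal vesicle) oocytes from females aged 21 days at 44 h after PMSG, a hormone that drives follicle growth, and ovulated oocytes, labelled MII for metaphase of the second division, at 16 h after hCG, the hormone that triggers ovulation. By the study's methods, the ovulated oocytes came from females that had received PMSG before hCG. Their age is not in the labels, and the labels list no further treatment. The MII groups are thus defined by time after hCG. The study's imaging found that ovulated null oocytes had not completed meiosis I, so null MII is here the name of a time point and not of a meiotic stage. Nothing in the labels says whether the 2 libraries of a group came from separate females, so p-values measure the spread between libraries, which may be technical.

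The ends of the 3′ UTRs are shown first, since a CPE near the polyadenylation hexamer is the sequence through which CPEB proteins act. In the GENCODE annotation of mm9, the longest coding transcript of each of the 9 genes was searched on its sense strand for TTTTAT and TTTTAAT (CPE) and for AATAAA and ATTAAA (hexamer) in its last 100 bases. All 9 had a hexamer there and only Papd4 had a CPE, with 2 copies of TTTTAT. Among 10102 kept genes with a 3′ UTR of at least 100 bases, 80.9% had a hexamer and 20.1% a CPE in the same window. Anywhere in the 3′ UTR, 8 of the 9 genes had a CPE and Parn had none, where 62.7% of the 10102 genes had one. Capitals mark the motif, and the windows, all in 3′ UTRs, are written 5′ to 3′ on the minus strand of the chromosome, on which both genes lie.
Papd4 first CPE, chr13:93917420-93917449: cttgttttcatgTTTTATttttaaaaggac
Papd4 second CPE, chr13:93917384-93917413: aaagattgcataTTTTATtatgacatttcc
Papd4 hexamer, chr13:93917365-93917394: atgacatttcctAATAAActctttgattta
Dazl hexamer, chr17:50418725-50418754: cttgtatacacgAATAAAacctttttttca
The Papd4 3′ UTR is also short, 191 bases against a median of 1048, so the 2 CPEs begin 83 and 47 bases and the hexamer 28 bases from its end, counting the last base as 1. Dazl is shown because it lay furthest below WT in null MII oocytes. Its 3′ UTR holds 6 CPEs, all further than 100 bases from the annotated end. A match of letters is not a tested site, and other ends than the annotated one were not examined.

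The deposited values are FPKM multiplied, by the authors, with a factor from synthetic ERCC RNAs added to each lysate, so that a value follows RNA per sample and not only its share of the library. The factors, recovered from the table, were 0.779 to 1 in growing, 0.533 to 0.836 in GV and 0.225 to 0.283 in MII libraries. Relative sequencing depth, also recovered from the steps between low values, ranged from 0.914 to 1.24 of the first WT growing library. The scaling sets the median of all genes: from GV to MII in WT it was -1.28 as deposited, -0.43 without ERCC factors and 0.16 with library medians set equal, all on the log2(FPKM + 1) scale. For null against WT at GV the same medians were -0.38, -0.03 and 0.08. Of the targeted genes, Zar2 (listed as Zar1l) had 504 to 644 FPKM in WT and 13.2 to 20.9 FPKM in null growing and GV libraries. Zar1 remained at 136 to 460 FPKM in the null libraries, and its short deletion leaves a transcript that can still be counted. The 10 oocyte markers summed to at least 3527 FPKM in every library and the 14 granulosa cell markers to at most 27.2 FPKM. Ptx3, a cumulus cell marker, was listed at 0 in all libraries, and 10 of the 14 granulosa markers stayed under 1 FPKM. The granulosa sum was 23.4 to 27.2 FPKM in WT and 6.45 to 11.6 FPKM in null growing libraries, and 13.6 to 15.7 against 10.2 to 12.02 FPKM at GV. At GV its member Inha was 4.03-fold higher in null (limma adjusted p = 7.7e-04). Kitl (9.05-fold, limma adjusted p = 3.1e-04) and Fshr (2.32-fold, adjusted p = 0.0070) were lower there, and Cyp19a1 was not called. In growing oocytes limma called Cyp19a1, Inha and Kitl lower in null and did not call Fshr. Of 6 immune markers 5 stayed under 1 FPKM in all libraries, and the other, Cd68, was 4.18-fold higher in null growing oocytes (limma adjusted p = 0.0063), with sums of 0.498 to 1.28 in WT and 3.06 to 3.19 FPKM in null. Of 5 oviduct markers 4 stayed under 1 FPKM, and the sum was 25.9 to 27.8 in WT and 14.0 to 17.2 FPKM in null GV libraries. Nearly all of it was Cdh1, at 26.6 and 25.7 FPKM in WT GV and 16.7 and 13.7 FPKM in null GV libraries. Cdh1 had 17.7 to 29.4 FPKM in growing libraries too. At MII the oocyte marker sum was 3527 to 4015 in WT and 6451 to 7285 FPKM in null libraries. The part of these markers in the differences between genotypes was not tested. In pooled oocytes, fewer cells of a type and less RNA per cell cannot be told apart. The cDNA was primed with oligo-dT, and tail length was not measured in these libraries.

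Dazl and Cpeb1 had by far the highest FPKM of the 9. In WT growing oocytes, Dazl averaged 366 FPKM and Cpeb1 236 FPKM, followed by Papd4 at 39.7, Pum2 at 24.7, Parn at 20.1, Zcchc6 at 3.19, Cpeb4 at 1.96, Cpeb2 at 0.335 and Zcchc11 at 0.192 FPKM. FPKM is per kilobase, and how far transcript length or tail length bears on this order in libraries primed with oligo-dT was not tested. The library ranges of neighbours in this order did not overlap in WT growing or WT GV oocytes, where the order was the same. In null GV oocytes Cpeb1 (mean 139 FPKM) ranked above Dazl (121 FPKM), and the ranges of Parn and Pum2, and of Cpeb4 and Zcchc6, overlapped. In WT MII oocytes Cpeb1 dropped to the fourth place, with a range that overlapped that of Pum2, while in null MII oocytes it was second to Dazl.

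**Figure D1:**
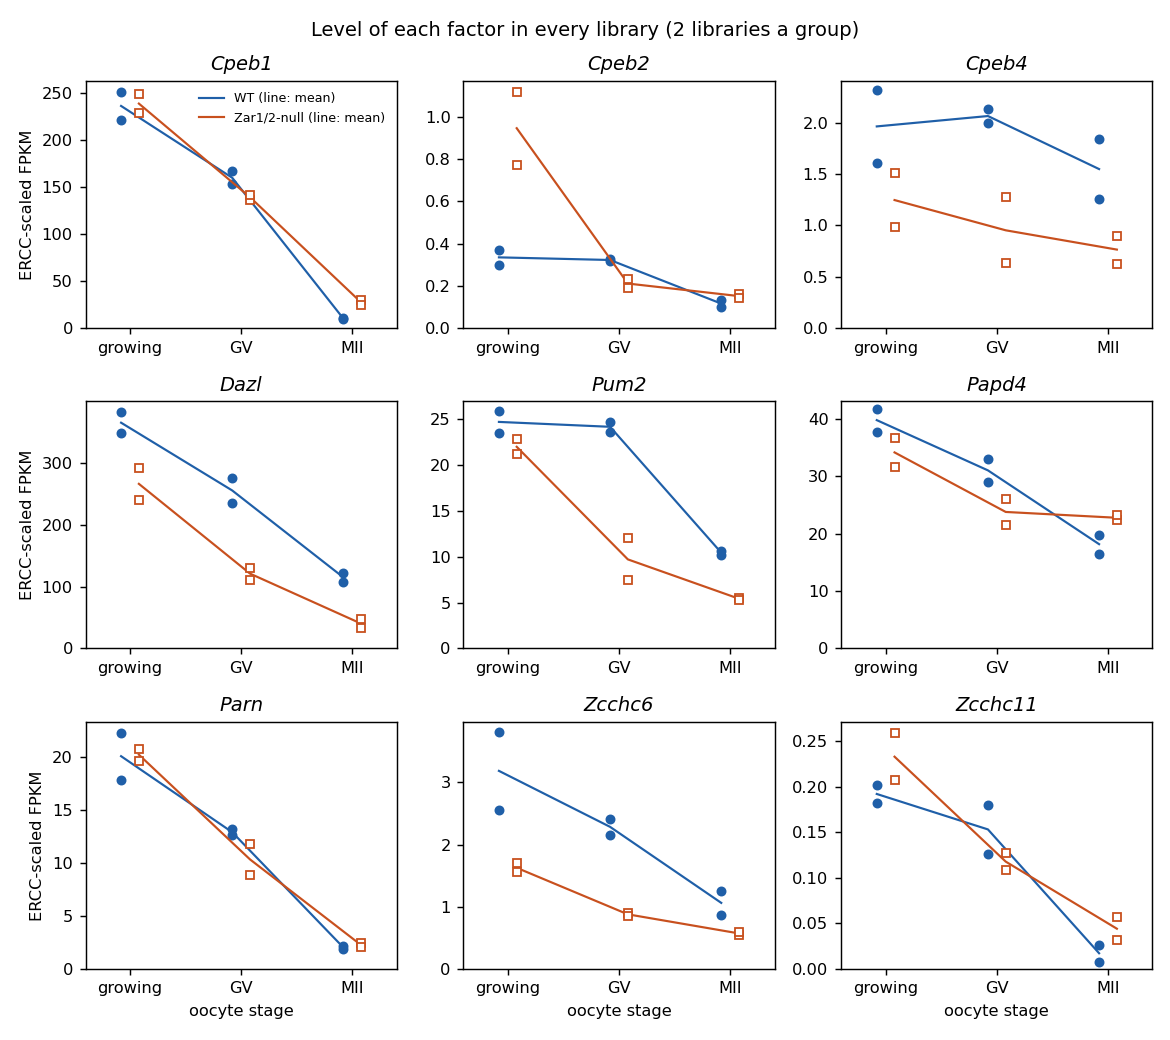
ERCC-scaled FPKM (vertical axes, from 0) of the 9 genes in growing, GV and MII oocytes, with 1 point per library (filled circles WT, open squares Zar1/2-null) and lines through the group means. The genotypes overlap for Cpeb1 in growing oocytes, its null libraries (136 and 142 FPKM) lie below WT (153 and 166 FPKM) at GV, and at MII the 2 null libraries (24.8 and 29.3 FPKM) lie above the 2 WT libraries (9.16 and 10.6 FPKM), while Dazl and Pum2 lie lower in null GV and MII oocytes.

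The first comparison set null against WT oocytes at each stage. The test was limma, fitted to log2(FPKM + 1) in 1 model of the 12 libraries, and a gene is called where its Benjamini-Hochberg adjusted p, over all 11502 genes, was under 0.05. In growing oocytes, 2 of the 8 tested genes were called, Cpeb2 higher and Zcchc6 lower, where 10.6% of all genes were called higher and 24.4% lower. At the GV stage 4 were called lower (Cpeb4, Dazl, Pum2 and Zcchc6) and none higher, where 40.6% of all genes were called lower and 2.83% higher. In MII oocytes Cpeb1 was called higher and Dazl and Pum2 lower, where 21.5% of all genes were called higher and 10.3% lower. The median log2 difference of the 8 was -0.19, -0.52 and -0.17 at the 3 stages, beside -0.16, -0.38 and 0.06 over all genes. At GV both null libraries of all 8 genes lay below both WT libraries, as did those of 63.6% of all genes. The shares called are thus not far from those of all genes, and what follows concerns single genes. Without the ERCC factors, 2 of the 8 (Dazl and Pum2) were called lower at GV, while at MII 4 (Cpeb4, Dazl, Pum2 and Zcchc6) were called lower and Cpeb1 higher. Over all genes the MII calls then changed from 2472 higher and 1183 lower to 2831 higher and 2694 lower, and the GV calls from 325 higher and 4666 lower to 827 higher and 1554 lower.

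**Figure D2:**
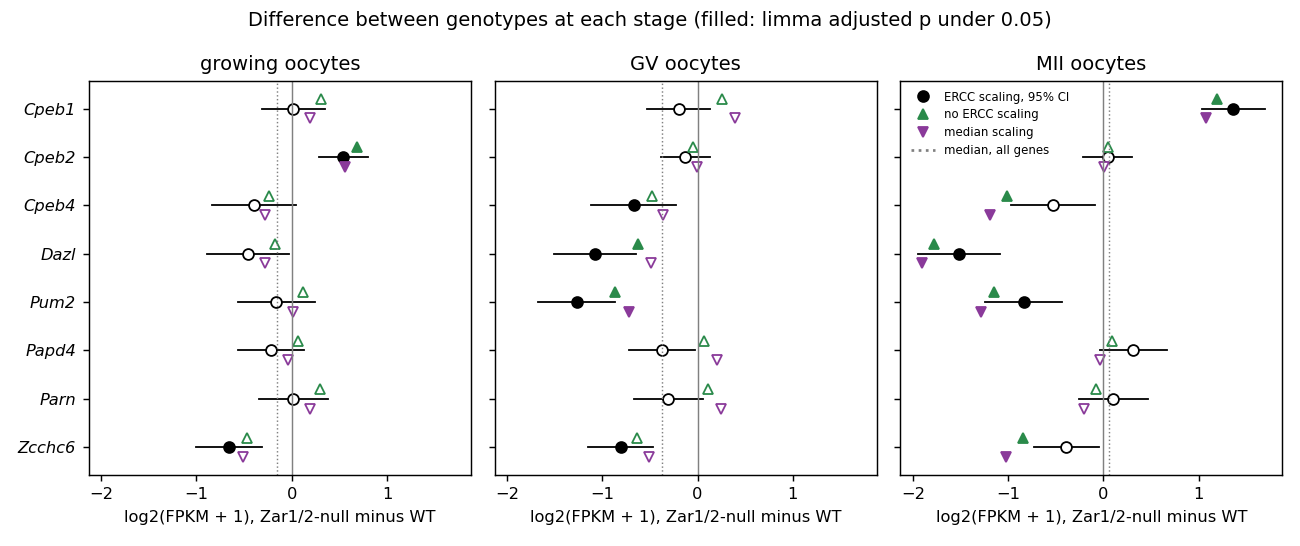
Difference between Zar1/2-null and WT in log2(FPKM + 1) (horizontal axes) for the 8 tested genes at each stage. Circles with 95% confidence intervals are the deposited ERCC scaling, triangles are the same difference without ERCC scaling or with library medians set equal, filled symbols have a limma adjusted p under 0.05 and dotted lines are the median of all genes. At MII the 3 scalings place Cpeb1 between 1.07 and 1.37 and Dazl between -1.90 and -1.52.

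Cpeb1 encodes the CPE-binding protein that holds dormant messages and later switches them on. The values here are of its mRNA, and by the study's blots the CPEB1 protein was degraded normally in maturing null oocytes. The WT libraries had 221 and 250 FPKM in growing, 166 and 153 FPKM in GV and 9.16 and 10.6 FPKM in MII oocytes. The null libraries had 228 and 249 FPKM in growing, 136 and 142 FPKM in GV and 29.3 and 24.8 FPKM in MII oocytes. The genotypes thus overlapped in growing oocytes, null was slightly lower at GV, and both null MII libraries were above both WT MII libraries. At MII the mean was 2.74-fold higher in null (log2 difference 1.37, SE 0.15, limma adjusted p = 3.2e-05). The differences in growing oocytes (0.02, SE 0.15) and at GV (-0.20, SE 0.15) were not called, with adjusted p of 0.95 and 0.30 in limma, and the GV difference turned to 0.25 without ERCC factors and 0.39 with medians set equal. From GV to MII, Cpeb1 fell 16.2-fold in WT (log2 change -3.89, adjusted p = 9.2e-10) and 5.13-fold in null (-2.32, adjusted p = 1.2e-07), where the median of all genes was -1.28 in WT and -0.72 in null. The difference between those changes was 1.56 (SE 0.21, limma adjusted p = 2.5e-04), where 33.9% of all genes were called in that direction. It stayed called without ERCC factors (0.94, adjusted p = 0.0042) and with medians set equal (0.68, adjusted p = 0.016), and leaving out any 1 library left it between 1.45 and 1.68.

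Cpeb2 and Cpeb4 had far lower FPKM than Cpeb1. Cpeb2 had 0.299 and 0.371 FPKM in WT growing, 0.326 and 0.318 in WT GV and 0.133 and 0.0978 FPKM in WT MII oocytes. Its null values were 0.775 and 1.12 FPKM in growing, 0.189 and 0.232 in GV and 0.161 and 0.141 FPKM in MII oocytes. The null growing libraries were the highest of the 12, 2.83-fold above WT (log2 difference 0.54, SE 0.12, limma adjusted p = 0.0047). Since Cpeb2 entered the test only through 1 of those libraries, that call is no independent evidence, although it was also made with all 23230 genes in the fit.

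Cpeb4, a CPEB family member that acts later in maturation, had 2.32 and 1.61 FPKM in WT growing, 1.99 and 2.14 in WT GV and 1.26 and 1.84 FPKM in WT MII oocytes. The null libraries had 1.51 and 0.983 FPKM in growing, 1.28 and 0.628 in GV and 0.628 and 0.900 FPKM in MII oocytes. At each stage both null libraries were lower than both WT libraries. The call was made at GV alone (2.17-fold lower, log2 difference -0.67, SE 0.20, limma adjusted p = 0.020), while those in growing (-0.40, adjusted p = 0.15) and MII oocytes (-0.53, adjusted p = 0.069) were not called. Leaving out either WT GV library or the second null GV library ended the GV call (limma adjusted p = 0.079, 0.080 and 0.15, with log2 differences of -0.71, -0.64 and -0.43), and without ERCC factors the call moved from GV to MII. Leaving out either null GV library brought the MII difference to an adjusted p of 0.048 and 0.049, with the value itself unchanged. For Cpeb4 the values are whole multiples of 1 fragment: at least 25 to 77 fragments lay behind each GV value and 52 to 224 behind each MII value. In WT, the 57 and 77 fragments of the GV libraries rose to 121 and 224 at MII, and only the ERCC factors turn that into a lower level.

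Dazl encodes a germ cell RNA-binding protein that, with CPEB1, drives translation in maturing oocytes, and among the 8 tested it lay furthest below WT in null MII oocytes. Its WT libraries had 383 and 349 FPKM in growing, 276 and 236 in GV and 123 and 107 FPKM in MII oocytes. In null oocytes they had 292 and 241 FPKM in growing, 111 and 131 in GV and 33.0 and 47.1 FPKM in MII oocytes. The null libraries were below the WT libraries at every stage. The log2 difference was -0.46 (SE 0.20, adjusted p = 0.091) in growing oocytes and was not called by limma. It was -1.07 (2.11-fold lower, adjusted p = 0.0015) at GV and -1.52 (2.87-fold lower, adjusted p = 1.1e-04) at MII in the same limma fit. The MII difference was -1.77 without ERCC factors and -1.90 with medians set equal, both called, while the GV difference (-0.62 and -0.48) kept its call only without ERCC factors. A test of whether the GV and MII differences were unequal gave -0.44 (SE 0.28, limma adjusted p = 0.23), and -1.15 (adjusted p = 0.0086) without ERCC factors. With medians set equal the same limma test gave -1.42 (adjusted p = 0.0055).

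Pum2, which encodes a Pumilio protein that binds 3′ UTRs and mostly represses, had 25.9 and 23.5 FPKM in WT growing, 24.8 and 23.6 in WT GV and 10.7 and 10.2 FPKM in WT MII oocytes. The null libraries had 21.2 and 22.8 FPKM in growing, 12.01 and 7.41 in GV and 5.54 and 5.29 FPKM in MII oocytes. WT held its level through growth, and the null libraries were lower in every stage and well apart at GV and MII. The difference was -0.16 (SE 0.18, adjusted p = 0.53 in limma) in growing oocytes. At GV it was -1.27 (2.49-fold lower, limma adjusted p = 4.1e-04), and at MII -0.83 (1.93-fold lower, adjusted p = 0.0046). Both calls held without ERCC factors and with medians set equal. The difference between genotypes in the change from growing to GV was -1.11 (SE 0.26, limma adjusted p = 0.021), where 11.3% of all genes were called in that direction. It was lost without ERCC factors (-0.98, adjusted p = 0.085), and without the second WT growing, the second null growing or the first WT GV library (adjusted p = 0.066, 0.071 and 0.067 at -1.04, -1.05 and -1.07).

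Papd4, the cytoplasmic poly(A) polymerase, had 37.8 and 41.7 FPKM in WT growing, 33.0 and 29.0 in WT GV and 19.8 and 16.5 FPKM in WT MII oocytes. Null libraries had 36.6 and 31.7 FPKM in growing, 21.6 and 26.0 in GV and 22.3 and 23.2 FPKM in MII oocytes. The null libraries were below WT in growing and GV oocytes and above WT in MII oocytes. None of the 3 differences was called by limma: -0.22 in growing (adjusted p = 0.32), -0.37 at GV (adjusted p = 0.077) and 0.32 at MII (adjusted p = 0.16), each with an SE of 0.16. The 95% interval of the MII difference ran from -0.03 to 0.66. Without the second null GV library the GV difference was called (-0.50, limma adjusted p = 0.048). From GV to MII, Papd4 fell 1.71-fold in WT (-0.74, limma adjusted p = 8.6e-04), and its change in null oocytes was -0.05 (adjusted p = 0.77). The difference between those changes, 0.69 (SE 0.22), was called at an adjusted p of 0.035, where 33.9% of all genes were called in that direction. That call rested on the ERCC scaling, since the value was 0.03 without it and -0.24 with medians set equal. It was also lost without the first WT GV, the first null GV, the second WT MII, the first null MII or the second null MII library, with values of 0.56 to 0.72 and limma adjusted p up to 0.11.

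Parn, the deadenylase of the set, showed the second largest decline in maturation and no call between genotypes. WT libraries had 17.9 and 22.3 FPKM in growing, 13.2 and 12.6 in GV and 2.12 and 1.90 FPKM in MII oocytes. Null libraries had 19.7 and 20.8 FPKM in growing, 8.86 and 11.8 in GV and 2.45 and 2.02 FPKM in MII oocytes. The genotypes overlapped in growing and MII oocytes. The 3 differences were 0.02, -0.31 and 0.10 with an SE of 0.16 and limma adjusted p of 0.95, 0.15 and 0.73, and the interval at MII ran from -0.26 to 0.47. Without the second null GV library, whose Parn value was the higher of the pair, the GV difference was called (-0.50, limma adjusted p = 0.046). From GV to MII it fell 6.43-fold in WT (-2.21, limma adjusted p = 1.6e-07) and 4.62-fold in null (-1.80, adjusted p = 1.8e-06). The WT fall was -0.86 without ERCC factors and, with medians set equal, the WT change was 0.02 and not called.

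Zcchc6, the uridylyltransferase TUT7, had 3.81 and 2.56 FPKM in WT growing, 2.15 and 2.42 in WT GV and 0.872 and 1.25 FPKM in WT MII oocytes. The null libraries had 1.70 and 1.55 FPKM in growing, 0.902 and 0.852 in GV and 0.542 and 0.596 FPKM in MII oocytes. They lay below both WT libraries at all 3 stages. Limma called it lower in growing (1.96-fold, log2 difference -0.66, adjusted p = 0.0077) and GV oocytes (2.61-fold, -0.81, adjusted p = 0.0021) and not at MII (-0.39, adjusted p = 0.084). Without ERCC factors the first of these was -0.47 (adjusted p = 0.12) and the second -0.63 (adjusted p = 0.053), and the MII difference was called at -0.85 (limma adjusted p = 0.0059). Leaving out the first WT growing library ended the growing call (-0.44, limma adjusted p = 0.065), and leaving out either WT growing library brought the MII difference to an adjusted p of 0.042 and 0.043. The null libraries were the lower ones at each stage in every fit that was run. At least 86 to 386 fragments lay behind each value, so counting error alone was modest.

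Zcchc11, the uridylyltransferase TUT4, was the lowest of the 9. It had 0.183 to 0.201 FPKM in WT growing, 0.126 to 0.180 in WT GV and 0.00748 to 0.0267 FPKM in WT MII oocytes, and 0.207 to 0.259, 0.109 to 0.127 and 0.0315 to 0.0565 FPKM in the null groups. The smallest whole-fragment series that gives these values runs from 2 to 27 fragments a library. With all 23230 genes in the fit, none of its 3 differences between genotypes was called by limma (adjusted p = 0.34, 0.37 and 0.72), and their 95% intervals ran from -0.02 to 0.12, -0.11 to 0.02 and -0.03 to 0.11 on the log2(FPKM + 1) scale, which compresses values this low. In the same limma fit it fell from GV to MII in WT (-0.18, adjusted p = 0.0015) and in null oocytes (-0.10, adjusted p = 0.038), and from growing to GV in null oocytes (-0.14, adjusted p = 0.011).

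The changes with stage were set side by side next. These contrasts share libraries with the genotype contrasts, so they are not independent of them. From growing to GV, Cpeb1 (1.48-fold, log2 change -0.56, limma adjusted p = 0.019) and Parn (1.56-fold, -0.59, adjusted p = 0.021) fell in WT, where 28.7% of all genes were called lower. Without the second WT growing or the second WT GV library neither was called (limma adjusted p from 0.11 to 0.16, values from -0.44 to -0.56), and without the first WT GV library Parn was not (-0.63, adjusted p = 0.053). Both calls were also lost without ERCC factors (-0.17 for Cpeb1 and -0.23 for Parn) and with medians set equal (-0.21 and -0.26). In null oocytes 7 of the 8 fell over the same interval, all but Cpeb4, where 55.9% of all genes were called lower. The largest of these falls were in Pum2 (2.27-fold, -1.14, limma adjusted p = 4.0e-04) and Dazl (-1.13, adjusted p = 6.1e-04). Parn (-0.92), Cpeb1 (-0.77), Cpeb2 (-0.68), Papd4 (-0.51) and Zcchc6 (-0.48) followed. Without ERCC factors only Cpeb2, Dazl and Pum2 kept their calls, and with medians set equal only Cpeb2, while the change of Papd4 turned to 0.03 and 0.23. Since Cpeb2 entered the test only through a null growing library, its called fall in null oocytes is no independent evidence under any scaling. Papd4 lost its call without the first null growing or first null GV library (limma adjusted p = 0.11 and 0.099 at -0.41 and -0.38). Zcchc6 lost it without the first null growing library or either null GV library (limma adjusted p = 0.082, 0.058 and 0.070 at -0.44, -0.50 and -0.46), and with all genes in the fit (adjusted p = 0.055). The genotype difference in this change was called for Pum2, as above, and for Cpeb2 (-0.67, SE 0.17, limma adjusted p = 0.025). For Cpeb2 it was lost without the second null growing library, the one above 1 FPKM, or the first null GV library (adjusted p = 0.052 and 0.055 at -0.54 and -0.64), and under both other scalings. As that library alone brought Cpeb2 into the test, the call is no independent evidence.

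From GV to MII, 6 of the 8 fell in WT (Cpeb1, Parn, Dazl, Pum2, Papd4 and Zcchc6), where 93.4% of all genes were called lower. Cpeb1 (-3.89) and Parn (-2.21) lay below the median of all genes (-1.28). Dazl (-1.15) and Pum2 (-1.14) lay near it, and Papd4 (-0.74) and Zcchc6 (-0.68) above it. That median includes low genes, whose changes the log2(FPKM + 1) scale compresses. Among genes averaging 5 FPKM or more it was -2.03, with Parn near it and Dazl, Pum2 and Papd4 above it. Cpeb2 (-0.25, limma adjusted p = 0.064) and Cpeb4 (-0.28, adjusted p = 0.20) were not called, on a scale that compresses values near 1 FPKM. With a pseudocount of 0.1 FPKM in place of 1, Cpeb2 was called lower (-0.98, limma adjusted p = 0.014), as it was with all genes in the fit (adjusted p = 0.032). Leaving out any 1 growing library brought Cpeb2 under the threshold, at adjusted p from 0.023 to 0.047 with the same value. In null oocytes 4 fell (Cpeb1, Parn, Dazl and Pum2), where 68.7% of all genes were called lower. There Cpeb1 (-2.32), Parn (-1.80) and Dazl (-1.59) were below the median of all genes (-0.72), Pum2 (-0.71) was at it and Papd4 (-0.05) was above it. Among genes averaging 5 FPKM or more the null median was -1.19, and Pum2 was above that. For Pum2 in null oocytes the change ranged from -1.02 to -0.39 when a library was left out, the smaller fall without the first null GV library. Relative to the whole library, without the ERCC factors, Dazl, Pum2, Papd4 and Cpeb4 rose in WT (0.60, 0.53, 0.96 and 1.06, all called by limma). Cpeb1 fell in both genotypes under all 3 scalings.

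**Figure D3:**
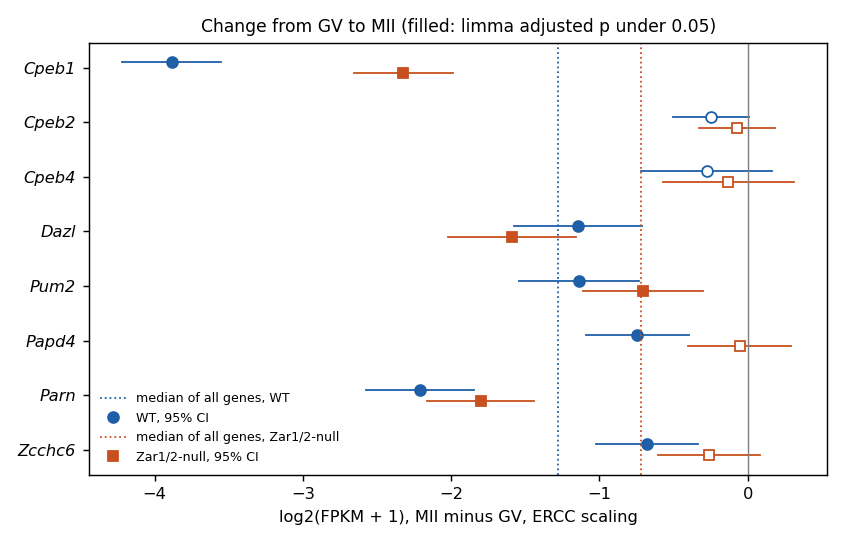
Change from GV to MII in log2(FPKM + 1) with ERCC scaling (horizontal axis) for the 8 tested genes, with 95% confidence intervals, circles for WT and squares for Zar1/2-null. Filled symbols have a limma adjusted p under 0.05 and the dotted lines are the medians of all genes. Cpeb1 is the leftmost in both genotypes, at -3.89 in WT and -2.32 in null, and Papd4 is at -0.74 in WT and -0.05 in null.

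By the size rules used in the study, with group means under 1 FPKM set to 1, none of the 9 genes passed 3-fold between genotypes at any stage, where 4.52%, 4.66% and 8.82% of all genes did in growing, GV and MII oocytes. Dazl at MII came closest and passed 3-fold lower without ERCC factors, with medians set equal, and without the second WT MII or second null MII library. Pum2 at GV passed it without the first null GV library. Only Cpeb1 fell past 10-fold from GV to MII, and only in WT, where 15.7% of all genes did so, against 6.66% in null. It did not pass 10-fold without the ERCC factors.

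Ratios of 2 genes within a library do not depend on any library factor, so they hold under every scaling. Cpeb1 over Dazl was 0.579 and 0.718 in WT growing, 0.603 and 0.648 in WT GV and 0.0746 and 0.0989 in WT MII libraries. In null libraries it was 0.780 and 1.03 in growing, 1.22 and 1.08 in GV and 0.888 and 0.527 in MII oocytes. The genotypes did not overlap at any stage, and the distance was largest at MII. Dazl over Papd4, with Dazl as the numerator, was lower in null libraries. It was 6.21 and 6.48 in WT MII and 1.48 and 2.03 in null MII libraries. At GV it was 8.36 and 8.13 in WT and 5.17 and 5.04 in null libraries. Both ratios contain Dazl, so they are not independent of each other. An exact two-sided permutation test of 2 libraries against 2 cannot give a p below 0.333, which is what both ratios gave at each stage. As a share of the summed FPKM of the 9 genes, Dazl made up 73.6% and 71.6% in WT MII and 35.1% and 45.2% in null MII libraries. Cpeb1 made up 5.49% and 7.08% in WT MII and 31.2% and 23.8% in null MII libraries, and Papd4 11.9% and 11.0% in WT and 23.7% and 22.3% in null.

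**Figure D4:**
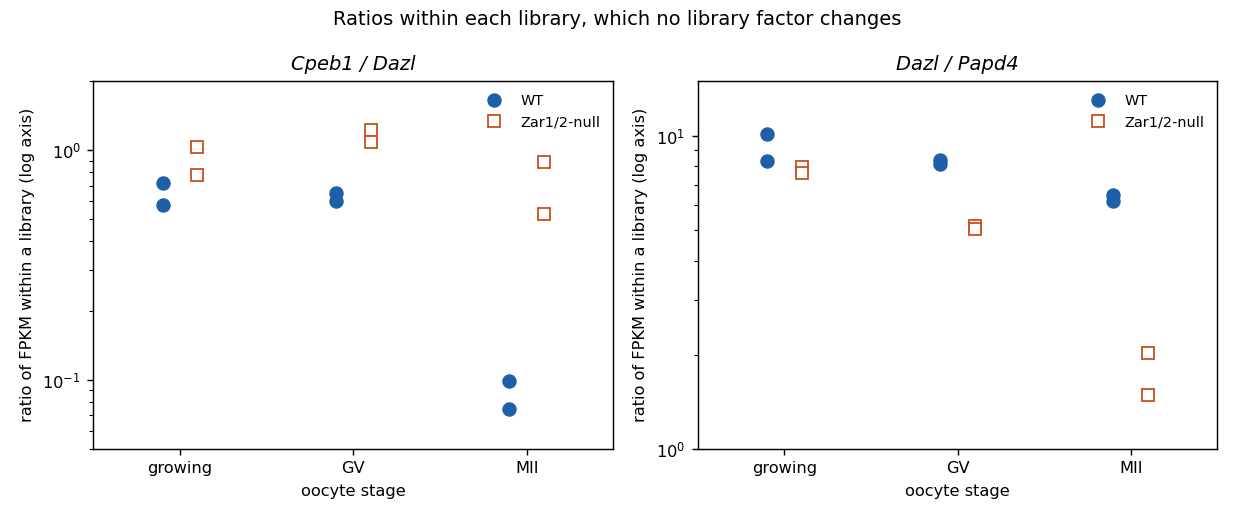
Ratios of FPKM within each library (log vertical axes), Cpeb1 over Dazl on the left and Dazl over Papd4 on the right, with 1 point per library (filled circles WT, open squares Zar1/2-null). At MII the null libraries reach 0.527 and 0.888 for Cpeb1 over Dazl and the WT libraries 0.0746 and 0.0989.

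The rest of the pathway was described with a list of 22 other factors, of which 19 were tested: further RNA-binding proteins, nuclear and non-canonical poly(A) polymerases, cleavage and polyadenylation (CPSF) subunits and partners on the dormant mRNP. In growing oocytes 1 was called higher and 3 lower by limma, at GV none higher and 8 lower, and at MII 2 higher and 4 lower. Over all genes 10.6% were called higher and 24.4% lower in growing, 2.83% and 40.6% at GV, and 21.5% and 10.3% in MII oocytes. The list's median difference was -0.15, -0.55 and -0.07, beside -0.16, -0.38 and 0.06 over all genes. In growing oocytes Cpsf1, a CPSF subunit, was 1.54-fold higher in null, and Cpsf2, another subunit, and Papolg, a nuclear poly(A) polymerase, were 2.14- and 1.90-fold lower. At GV, Cpsf2 was 2.02-fold lower. At MII, Ybx2, which encodes the RNA-packaging protein MSY2, was 9.35-fold higher (0.982 and 1.53 FPKM in WT, 11.6 and 11.9 FPKM in null, limma adjusted p = 4.6e-06). Papd7, a non-canonical poly(A) polymerase, was 1.40-fold higher. Papd5, another non-canonical poly(A) polymerase, was 2.70-fold lower. Without ERCC factors the counts were 0 higher and 2 lower, 0 and 3, and 1 and 7 at the 3 stages, Cpsf1 and Papd7 lost their calls, and the other genes named here kept theirs. With a library of the same stage left out, Papd7 lost its call each time (limma adjusted p from 0.059 to 0.15) and Cpsf1 in all cases but the first null growing library (up to 0.21), and Papolg lost it without the second null growing library (0.066, at 1.67-fold).

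The second list held 13 mRNAs known to be polyadenylated in the cytoplasm of maturing mouse oocytes, and all 13 were tested. Limma called none higher and 6 lower in growing oocytes, none higher and 8 lower at GV, and 2 higher and 1 lower at MII, against the same shares of all genes (24.4% lower in growing, 40.6% lower at GV, 21.5% higher and 10.3% lower at MII). The median difference was -0.50, -0.59 and -0.14, beside -0.16, -0.38 and 0.06 over all genes. In growing oocytes Cnot7, a deadenylase subunit, was 2.68-fold lower and Dcp2, the decapping enzyme, 2.56-fold lower. At GV Tex19.1, a germ cell gene, was 3.96-fold lower (41.97 and 24.1 FPKM in WT, 4.98 and 11.7 FPKM in null, and 6.63-fold without the second null GV library), and Dcp2 was 3.35-fold lower. At MII, Plat, which encodes tissue plasminogen activator, had 98.9 and 94.8 FPKM in WT and 325 and 312 FPKM in null, a 3.29-fold difference. Mos, the kinase that holds meiotic arrest, was 1.89-fold higher in null, and Dcp2 was 8.51-fold lower. All of these kept direction and call without ERCC factors and with medians set equal. The counts without ERCC factors were 1 higher (Mos) and 2 lower in growing, 2 lower at GV, and 2 higher and 7 lower in MII oocytes. By the study's poly(A) tail assays, the tails of Ccnb1, Btg4, Wee2 and Tpx2 did not lengthen in maturing null oocytes. The bearing of tail length on the values of the list was not tested. Of the 13 targets, 6 had a CPE in the last 100 bases of the annotated 3′ UTR: Plat, Wee2, Btg4, Cnot7, Dcp1a and Orc6. Among the 10102 kept genes 20.1% had one there. Only TTTTAT and TTTTAAT at the annotated end were searched, so a target without a match may still hold a CPE.

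**Figure D5:**
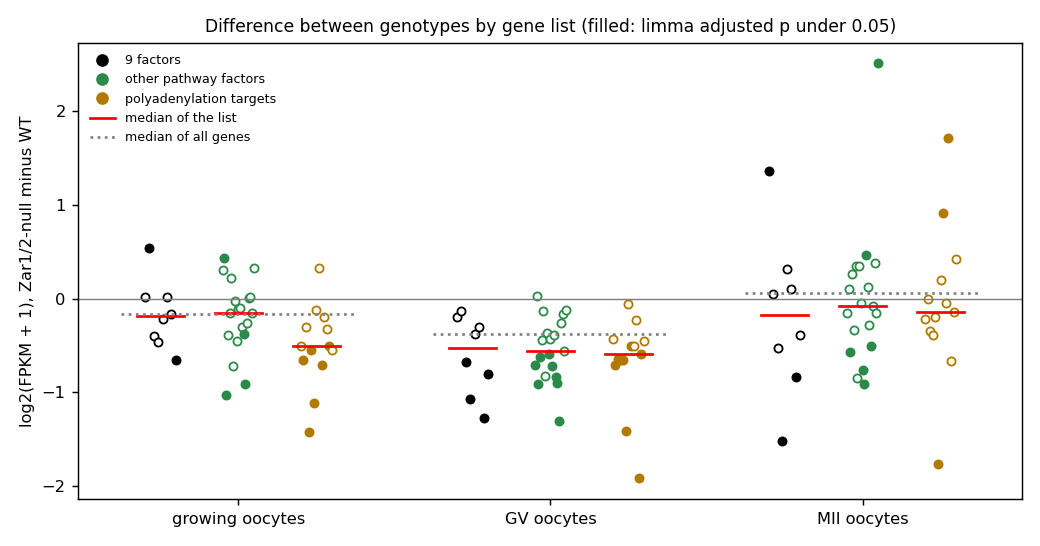
Difference between Zar1/2-null and WT in log2(FPKM + 1) (vertical axis) at each stage, with 1 point per gene for the tested genes among the 9 factors, the other pathway factors and the polyadenylation targets. Filled points have a limma adjusted p under 0.05, red bars are the list medians and dotted lines the median of all genes. All 3 list medians lie below 0 at GV, and at MII the highest points are Ybx2 (2.51) and Plat (1.71) and the lowest is Dcp2 (-1.77).

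For each of the 9, the genes most alike in pattern were taken as those with the smallest distance between centred log2(FPKM + 1) profiles over the 12 libraries, among 5966 genes that averaged 5 FPKM or more. Grina and Sh3gl1 were nearest to Cpeb1 (distance 0.42 and 0.50, Pearson's r 0.997 and 0.996), and Map2k1 and Taldo1 to Papd4 (0.21 and 0.28, r 0.992 and 0.977). Dtl and Matr3 were nearest to Dazl (0.60 and 0.67, r 0.989 and 0.989), Rif1 and Smek2 to Pum2 (0.55 and 0.56, r 0.984 and 0.982), and Ccdc86 and Fbxl2 to Parn (0.39 and 0.45, r 0.996 and 0.994). Kif20b and Arhgap42 were nearest to Zcchc6 (0.37 and 0.46, r 0.977 and 0.972). For the 3 lowest genes in WT growing oocytes r was lower, though not every distance was larger, on a scale that compresses low values. Srrm1 and Esyt2 were nearest to Cpeb4 (0.56 and 0.58, r 0.886 and 0.893). Ppp1r3d and Rb1 were nearest to Cpeb2 (0.65 and 0.70, r 0.732 and 0.766), and Slain1 and Ap1ar to Zcchc11 (0.45 and 0.46, r 0.699 and 0.804). These correlations run over libraries that share the ERCC factors and the fall from GV to MII, and they are given as a description.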

How the data were processed

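Smart-seq2 libraries of 10 oocytes were sequenced by the authors, who shortened reads to 50 bp, aligned them with TopHat2 2.1.1 (build mm9) and computed FPKM with Cufflinks 2.2.1. The deposited table holds FPKM multiplied by the authors with an ERCC factor per library, for 23230 genes and 12 libraries. The WT growing library of the same replicate number is the reference, so its factor is 1. Dividing by the factors recovered here gave unscaled FPKM. Counts were not used here, and fragments were recovered only for 4 genes (within 0.1 of a whole number), as the smallest whole series, so they are lower limits. On average 33.5% of the values of a library were 0, and a gene listed at 0 may be a failed estimate.

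The 11502 genes that reached 1 FPKM in any library were kept, and log2(FPKM + 1) was fitted with limma 3.58.1 in R 4.3.3, with 1 term per group and an intensity trend, with Benjamini-Hochberg adjustment over all kept genes. The added 1 FPKM understates the fold of low genes, so ratios of group means are printed beside it. On simulated data, 200 of 11502 genes, all averaging at least 5 FPKM at GV, changed 4-fold at GV. Of these, 99.5% were recovered beside 11 unchanged genes called. The other genes had no genotype difference there. The simulation thus does not measure how well smaller folds, low genes or a shift of many genes are handled. Alternatives were no ERCC scaling, library medians set equal, a pseudocount of 0.1 FPKM, a mean of at least 5 FPKM, no filter, a replicate block, no trend, a stage alone and leaving out each library. The members and lists were chosen with earlier results of these data known. Named genes are the 9, the targeted genes, the 2 called genes of each list with the largest ratio of means in each direction, and the 2 nearest in pattern to each of the 9. An item that this rule would name, and a sequence window, are not reported here. Sequences were read from the mm9 genome with GENCODE annotation. The RT-qPCR, poly(A) tail, blot and imaging experiments were not analysed here.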

Additional observations from a re-analysis of the deposited data

Results flagged for a closer look

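With the deposited scaling, limma called a gene's difference between genotypes unequal between stages in 4 cases. Of these, only the Cpeb1 call was made under both other scalings and with any 1 library left out. Over all genes, 33.9% were called higher from GV to MII, the direction of Cpeb1 and Papd4. From growing to GV, 11.3% were called lower, the direction of Pum2 and Cpeb2. For Cpeb1 the null minus WT difference rose by 1.56 on the log2(FPKM + 1) scale from GV to MII, with both null MII libraries above both WT libraries. For Papd4 it rose by 0.69 over the same interval, and the call was lost without ERCC factors (0.03, adjusted p = 0.95) and with medians set equal (-0.24, adjusted p = 0.49). For Pum2 the difference changed by -1.11 from growing to GV oocytes, and the call was lost under the same scalings (-0.98 and -0.73, adjusted p = 0.085 and 0.20). For Cpeb2 it changed by -0.67 and the call was also lost (-0.74 and -0.57, adjusted p = 0.087 and 0.21), and Cpeb2 entered the test only through a null growing library, so that this call is no independent evidence. Each of these 3 calls was also lost when single libraries were left out. Dazl was not called with the deposited scaling. Its difference changed by -1.15 and -1.42 from GV to MII under the other scalings, and limma called both. Groups of 2 libraries are too small to test for a single library that stands apart.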

How the results depend on the processing

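Cpeb1 higher and Dazl and Pum2 lower at MII, and Pum2 lower at GV, kept direction and call under both other scalings and with any 1 library left out. The number of the 8 genes called changed as follows, and the cause was not tested except where fewer genes entered the fit. In growing oocytes (2) it was 1 without ERCC scaling, with median scaling and with the stage alone, 0 among genes averaging 5 FPKM or more, which leaves out Cpeb2, Cpeb4 and Zcchc6, and 1 to 2 when a library was left out. At GV (4) it was 2, 1 and 2 under no ERCC scaling, median scaling and the mean of at least 5 FPKM, 3 with no filter (Cpeb4 lost, adjusted p = 0.086), and 3 to 5 when a library was left out. At MII (3) it was 5 under no ERCC scaling, median scaling and a pseudocount of 0.1 FPKM, and 3 to 4 when a library was left out. From growing to GV it was 0 and 0 in WT (2; 0 to 3 with a library left out) and 3 and 1 in null (7; 5 with the mean of 5, 5 to 7 with a library left out) under the same 2 scalings. From GV to MII in WT (6, all lower) it was 6 with 4 higher and 7 with 6 higher under these scalings, 7 lower with the pseudocount of 0.1, 5 with the mean of 5, 8 of 9 with no filter and 6 to 7 with a library left out. From GV to MII in null (4) it was 7 under median scaling, 5 of them higher, and 5 of 9 with no filter. The growth interaction (2) had 0 under both scalings, 1 under the pseudocount of 0.1, the mean of 5 and no filter, and 0 to 2 with a library left out. The maturation interaction (2) had 1 with no filter and 1 to 2 with a library left out. It stayed at 2 under both scalings, but with Dazl called lower in place of Papd4 called higher. Genes past 3-fold (0) were 1 under both scalings and 0 to 1 with a library left out, and genes fallen past 10-fold (1) were 0 under both scalings.

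Without ERCC scaling the direction from GV to MII turned in WT for Cpeb2 (0.084), Cpeb4 (1.06), Dazl (0.60), Pum2 (0.53), Papd4 (0.96) and Zcchc6 (0.49), and in null for Cpeb2 (0.18), Cpeb4 (0.53), Pum2 (0.24), Papd4 (0.99) and Zcchc6 (0.28). With median scaling it turned in WT for Cpeb2 (0.42), Cpeb4 (1.85), Dazl (1.55), Pum2 (1.46), Papd4 (1.90), Parn (0.016) and Zcchc6 (1.26), and in null for Cpeb2 (0.43), Cpeb4 (1.02), Dazl (0.13), Pum2 (0.89), Papd4 (1.66) and Zcchc6 (0.75). Differences between genotypes that turned without ERCC scaling were Cpeb1 (0.25), Papd4 (0.065) and Parn (0.11) at GV, Pum2 (0.12) and Papd4 (0.064) in growing oocytes and Parn (-0.081) at MII. With median scaling they were Cpeb1 (0.39), Papd4 (0.20) and Parn (0.24) at GV, Pum2 (0.011) in growing oocytes, and Papd4 (-0.036) and Parn (-0.20) at MII. None of these had been called. From growing to GV in null, Papd4 was 0.030 and 0.23 under the 2 scalings, and its maturation interaction was -0.24 with median scaling. With a library left out, signs turned for Cpeb1 (-0.071 to 0.10) and Parn (-0.14 to 0.17) in growing oocytes and for Cpeb4 (-0.37 to 0.11) and Papd4 (-0.18 to 0.074) from GV to MII in null, none of them called.

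Replicate numbers showed little gene-level pairing: deviations of same-numbered libraries correlated at -0.117 to 0.163 over 15 pairs of groups, 4 of them over 0.1. Such a correlation cannot show an offset common to all genes, such as one from the ERCC reference that same-numbered libraries share. A replicate block changed no call of the 8 genes, and the counts stayed 2, 4 and 3 at the 3 stages, with Cpeb1 at MII at 1.37. Low FPKM limits what can be said of Cpeb2, Cpeb4 and Zcchc11, and 2 libraries a group limit every value.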
